A study of Mus musculus with 6 samples.

Results

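Wnt proteins are secreted ligands that bind Frizzled receptors, and this report describes their ligands, receptors, secreted antagonists and central transducers in mouse satellite cells, the resident stem cells of skeletal muscle. The members were chosen by a rule on symbols: the numbered Wnt, Fzd, Sfrp, Dkk and Rspo genes and named receptors, antagonists and transducers. No value entered the rule, but the choice was made with earlier results of these data known. The rule found 59 of the 19938 genes measured. One of the 59, Fzd10os, is a transcript from the strand opposite Fzd10 and encodes no receptor. A further gene of the rule had no probe set given to it alone and was not analysed here.

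Expression was measured on 6 whole-transcript arrays, 3 from cultured and 3 from freshly sorted cells. The cultured cells had been grown for 5 days on plates coated with collagen and laminin; their medium held 20% horse serum and received basic fibroblast growth factor daily at 5 ng/ml. The fresh cells came from resting hindlimb, abdominal and triceps muscle. Cells of both groups were taken from C57BL/6J mice aged 2 months, with no transgene or mutation named, by a sort for beta-1 integrin and CXCR4 that excluded CD45, CD31, CD11b, Ter119 and Sca1. The labels name 3 mice and tie no array to a mouse, so the spread between arrays may be partly technical. The arrays hold bulk RNA, in which a change in the share of a cell type cannot be told apart from a change in RNA per cell.

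In the canonical branch of the pathway, a Wnt bound to a Frizzled and to Lrp5 or Lrp6 halts the Axin-based complex that destroys beta-catenin. Beta-catenin then enters the nucleus and joins TCF/LEF factors on target genes, several of which (Axin2, Lef1, Rnf43, Znrf3, Dkk1) feed back on the pathway. Other branches run through Ror receptors and the planar polarity proteins without beta-catenin. In skeletal muscle, Wnt7a acting through Fzd7 is known to promote symmetric satellite cell division, and canonical signalling is known to influence the commitment of myoblasts to differentiate.

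No member passed the test in either direction, against 4.32% of all genes measured (limma on the deposited log2 values, Benjamini-Hochberg adjustment over all 19938 genes, adjusted p threshold 0.05). Of all genes 3.37% were called lower and 0.953% higher in culture. At an unadjusted p under 0.05 there were 9 members, 5 higher and 4 lower in culture, and the share of all genes there was 17.6%. The 3 cultured values lay wholly above the 3 fresh values for 6 members and wholly below them for 4, where the shares of all genes were 12.9% and 10.3%. These member counts are not above what all genes gave.

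Many members were dim. As a background level served the 95th percentile over 1190 genes of smell and pheromone receptors, which was 3.32 in cultured and 3.21 in fresh cells. Above it on all 6 arrays lay 28 members, or 47.5%, against 38.3% of all genes, and 18 members lay above it on no array. The remaining 13 exceeded it on some arrays. These counts use each array's own level, which ran from 3.17 to 3.40, and the level per group serves for group means. The brightest member averaged 5.82 in cultured cells, where the brightest named probe set of each array reached 12.2 to 14.8. A probe set above this level can still carry background of its own probes, and levels of different probe sets were not set against each other.

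The differences were also small in size. Regardless of sign, the median log2 difference was 0.14 over the 59 members and 0.18 over all genes. Over the genes above background on all 6 arrays it was 0.13 for members and 0.27 for all such genes. With sign kept, the log2 differences, cultured minus fresh, had a median of 0.09 over the 59 members and 0.04 over all genes. Among the 28 members above background on all 6 arrays they ran from -0.72 for Fzd4 to 0.62 for Wnt10b. Sfrp4 had a difference of -0.85 between group means that were both within background. No member reached a 2-fold change, a log2 fold change of 1 in size, which 5.54% of all genes did. For 54 of the 59 members the 95% confidence interval of the difference, not adjusted for the number of genes, lay wholly inside a 2-fold change in both directions, as it did for 82.3% of all genes. Over the genes above background on all 6 arrays this held for 25 of 28 members and 69.2% of all such genes; within background, a narrow interval does not bound a change. The intervals of Fzd4, Lrp6, Sfrp4, Fzd2 and Wnt10b reached past it, so a 2-fold change of these 5 lies within their error.

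**Figure D1:**
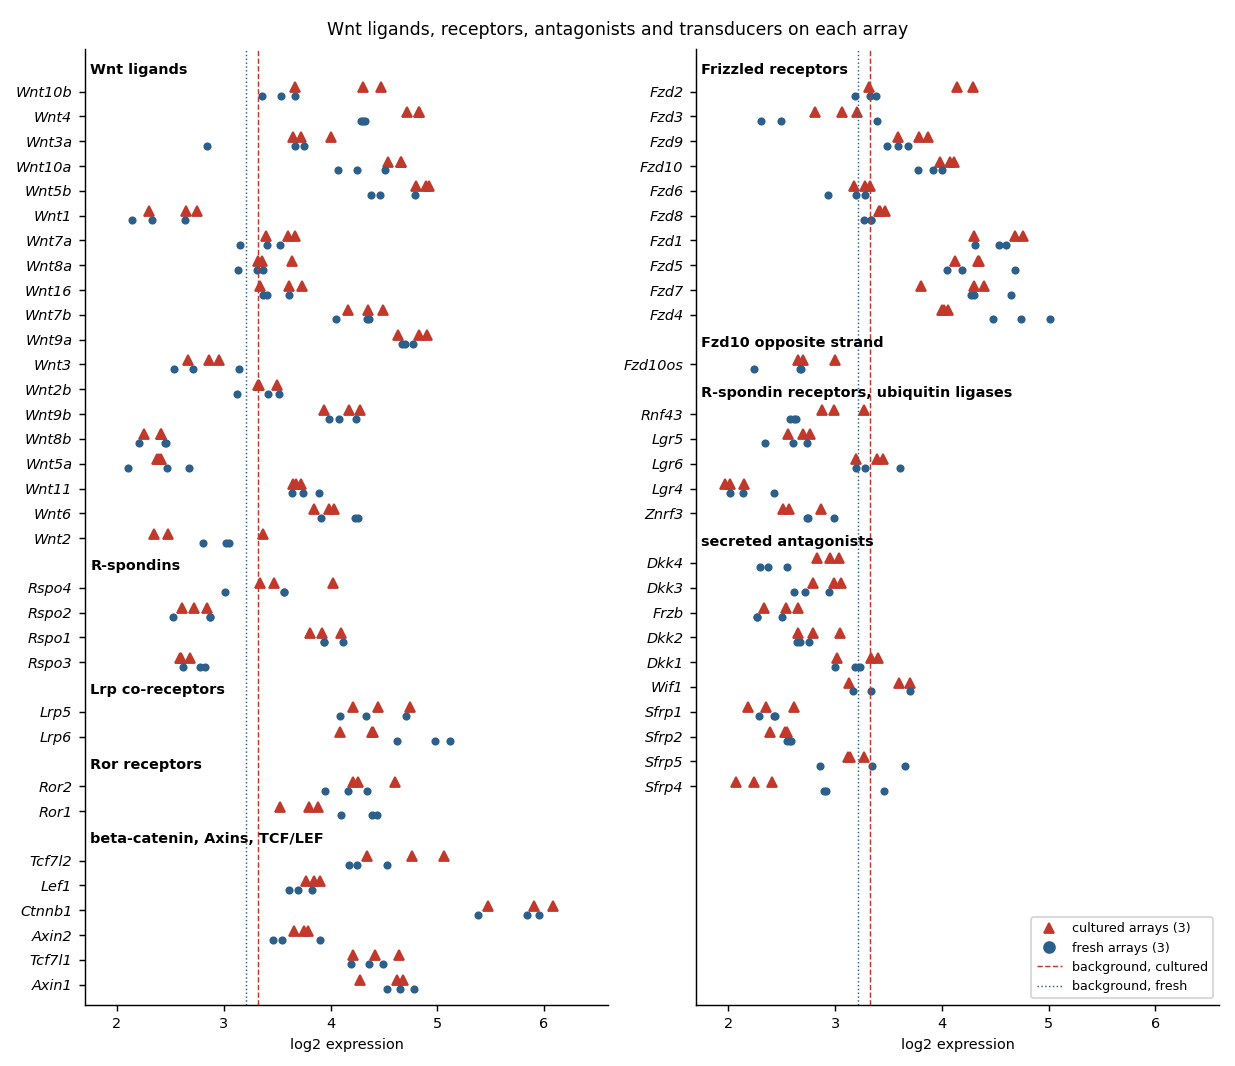
Expression of the 59 members on each array, by role, as log2 values on the x axis; red triangles are the 3 cultured arrays, blue circles the 3 fresh arrays, and the dashed and dotted lines mark background at 3.32 in cultured and 3.21 in fresh cells. The values of the groups are interleaved for most members, and lie apart for 10.

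Cultured replicates 2 and 3 stood apart among very bright probe sets: over the 142 whose mean was above 11, their median difference from the fresh mean was -3.34 and -2.70, against -0.13 for cultured replicate 1, while the array medians lay between 3.25 and 3.36. No member is that bright, and results without each array are given where they differ.

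The satellite cell label was set against 12 markers. On all 6 arrays 10 of them were above background; Calcr exceeded it on 2 cultured and all fresh arrays, and Chodl on no cultured and all fresh arrays. Pax7, the lineage transcription factor, averaged 5.14 ± 0.14 in cultured and 6.47 ± 0.23 in fresh cells (SD, n = 3 each). In culture 8 of the 12 fell, Pax7 among them, and none rose. Among markers of cells the sort should exclude, 6 of 8 leukocyte markers (Ptprc, the gene of CD45, included) and 5 of 8 endothelial markers (Pecam1, the gene of CD31, included) were above background on no array. Fibroblast and fibro-adipogenic markers were present: 5 of 12 fell in culture, and the log2 of their summed signal ran from 7.56 to 7.69 on cultured and from 9.48 to 10.04 on fresh arrays. Of the mast cell and basophil markers, 2 of 7 rose, Mcpt8 and Milr1, each above background on all 3 cultured arrays and no fresh array. Their log2 fold changes were 3.09 and 3.20, or 2.08 and 2.87 against the fresh background level, with adjusted p of 0.00359 and 0.00651. Gata2 was above background on all 6 arrays, with an adjusted p of 0.0504 that misses the threshold. Kit, Cpa3, Fcer1a and Ms4a2 were above background on no array. Of 8 muscle fibre markers Ckm alone fell, and no marker of pericytes, glia, tendon or red blood cells passed the test.

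As sequence context, the RefSeq promoter windows (250 bases before to 50 after a start site, build GRCm38.p6) were searched for the core of the TCF/LEF motif, CTTTG followed by 2 bases that are each A or T, and for the AP-1 motif TGANTCA, both on either strand. Windows were available for 39 of the 59 members. The TCF/LEF core stood in a window of 7 of these 39 genes (17.9%), where 18.9% of all 27025 genes had one, and the AP-1 motif in 2 of 39 (5.13%), where 8.97% of all genes had one. The motifs can share the bases TGA, and none of the windows printed holds both. Shown here are the windows of Lef1 and Dkk1, beta-catenin feedback genes known from other cells that hold the TCF/LEF core, and those of Ror2 and Wnt5b, the members that hold the AP-1 motif, known to bind AP-1 dimers such as those of Fos, which the series title names. Capitals mark the matches. A match describes letters in a window and is no evidence of binding. Lef1 lies at chr3:131156044-131156343 on the plus strand and Dkk1 at chr19:30549447-30549746 on the minus strand, with 2 matches. Ror2 lies at chr13:53286075-53286374 and the Wnt5b window at chr6:119544298-119544597, both on the minus strand. Another window of Wnt5b, at chr6:119449337-119449636 and not printed, holds the TCF/LEF core. Wnt5b is therefore also among the 7 genes with that core.
Lef1: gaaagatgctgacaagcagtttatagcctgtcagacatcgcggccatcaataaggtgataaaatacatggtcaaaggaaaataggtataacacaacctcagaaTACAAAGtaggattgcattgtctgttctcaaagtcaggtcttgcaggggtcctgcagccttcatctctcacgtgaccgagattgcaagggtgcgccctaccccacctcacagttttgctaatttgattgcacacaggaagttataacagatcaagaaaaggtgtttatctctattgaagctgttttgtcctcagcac
Dkk1: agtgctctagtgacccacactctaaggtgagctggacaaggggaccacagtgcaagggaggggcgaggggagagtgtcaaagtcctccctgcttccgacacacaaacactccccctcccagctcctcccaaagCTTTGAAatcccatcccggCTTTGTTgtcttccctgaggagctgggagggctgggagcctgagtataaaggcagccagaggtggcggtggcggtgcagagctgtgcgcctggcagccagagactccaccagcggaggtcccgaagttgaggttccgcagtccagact
Ror2: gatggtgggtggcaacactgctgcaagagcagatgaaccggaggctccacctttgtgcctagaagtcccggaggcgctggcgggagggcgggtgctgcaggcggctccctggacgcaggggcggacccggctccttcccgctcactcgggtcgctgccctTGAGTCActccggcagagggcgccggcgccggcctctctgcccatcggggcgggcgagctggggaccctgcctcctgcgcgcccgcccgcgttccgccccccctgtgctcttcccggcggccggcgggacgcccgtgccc
Wnt5b: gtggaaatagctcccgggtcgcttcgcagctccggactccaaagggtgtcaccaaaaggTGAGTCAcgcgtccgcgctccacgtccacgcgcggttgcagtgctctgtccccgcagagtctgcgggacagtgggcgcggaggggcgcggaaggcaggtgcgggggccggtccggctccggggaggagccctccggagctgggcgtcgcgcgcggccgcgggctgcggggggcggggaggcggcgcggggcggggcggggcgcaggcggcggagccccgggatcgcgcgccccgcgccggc

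Wnt ligands made up 19 of the members, and none passed the test. Of the 19, 14 had a log2 difference above 0 and 5 below it, with a median of 0.09. Of all 19938 genes, 11284 were above 0 and 8654 below it, with a median of 0.04. Above background on no array were 5 of the 19 ligands, for which the sign of a difference says little. The smallest p belonged to Wnt4, a ligand that muscle fibres are known to release and that is linked to satellite cell quiescence. Wnt4 stood at 4.83, 4.83 and 4.72 in cultured cells, against 4.29, 4.31 and 4.33 in fresh cells. All 3 cultured values were above all 3 fresh values, with a gap wider than the SD of either group, and the log2 fold change was 0.49 ± 0.12 (SE) with an adjusted p of 0.0776. A further, dimmer probe set of Wnt4 gave 3.78, 3.39 and 3.62 in cultured cells and 2.95, 3.46 and 3.08 in fresh cells, a log2 fold change of 0.43 with an adjusted p of 0.279 when every probe set was tested on its own. Both probe sets of Wnt4 thus had the same direction and neither passed.

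The largest difference among the ligands was that of Wnt10b, known as a canonical ligand that restrains fat cell formation and as a gene of myogenic cells. Wnt10b was at 4.47, 3.67 and 4.30 in cultured cells, against 3.36, 3.54 and 3.67 in fresh cells. Cultured replicate 2 lay at the top of the fresh range while the other cultured arrays stood above it, and the log2 fold change of 0.62 ± 0.22 (SE) had an adjusted p of 0.195. Without cultured replicate 2 the log2 fold change of Wnt10b was 0.86 with an adjusted p of 0.0358, where 4.04% of all genes were called.

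Wnt5b, a mostly non-canonical ligand, was at 4.90, 4.93 and 4.80 in cultured cells, against 4.46, 4.79 and 4.38 in fresh cells. Wnt10a, a canonical ligand, was at 4.53, 4.66 and 4.66 in cultured cells, against 4.24, 4.51 and 4.07 in fresh cells. For both, fresh replicate 2 came close to the lowest cultured array, and the adjusted p was 0.317 for Wnt5b and 0.304 for Wnt10a. Wnt7a, the ligand linked to symmetric division, averaged 3.55 ± 0.14 in cultured and 3.36 ± 0.19 in fresh cells (SD, n = 3 each), close to background, with an adjusted p of 0.582. Wnt5a, a non-canonical ligand, was within background on every array, at 2.39 ± 0.02 in cultured and 2.41 ± 0.29 in fresh cells (SD, n = 3 each). The canonical ligands Wnt1 and Wnt3, together with Wnt2 and Wnt8b, had both group means within background as well. Wnt3a, another canonical ligand, was at 3.72, 4.00 and 3.65 in cultured cells, against 3.66, 3.75 and 2.84 in fresh cells, where fresh replicate 3 alone was low.

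Several Wnt genes lie beside one another in the genome. Wnt10b and its neighbour Wnt1 on chromosome 15 had log2 differences of 0.62 and 0.20. Wnt10a and its neighbour Wnt6 on chromosome 1 had 0.34 and -0.18. The pairs on chromosome 11 were Wnt3a and Wnt9a, at 0.37 and 0.07, and Wnt3 and Wnt9b, at 0.03 each. None of these 8 genes passed the test, so the pairs are given as values only. Wnt1 and Wnt3 were above background on no array, so their differences give no fold.

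R-spondins, secreted proteins that amplify Wnt signals by sparing Frizzled from degradation, gave little signal. Of the 4, Rspo1 alone was above background on all 6 arrays, at 3.92, 3.81 and 4.10 in cultured cells, against 4.12, 3.94 and 3.94 in fresh cells. Its log2 fold change was -0.06 with a 95% confidence interval from -0.38 to 0.27. Rspo2 and Rspo3 were above background on no array. The smallest p of this group was that of Rspo4, at 3.34, 4.02 and 3.47 in cultured cells, against 3.56, 3.56 and 3.01 in fresh cells, with an adjusted p of 0.676.

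**Figure D2:**
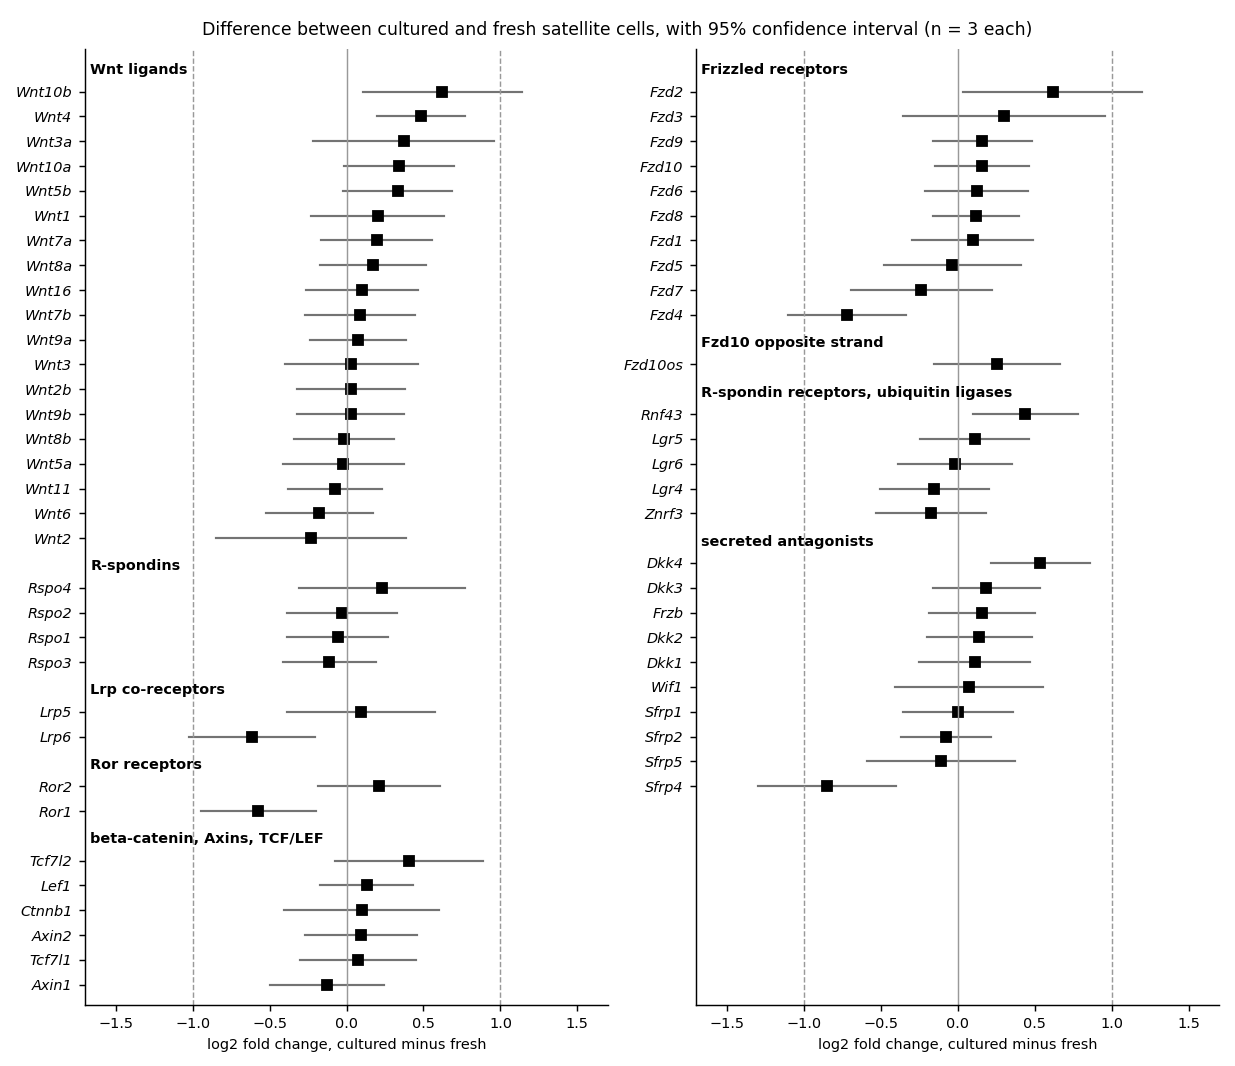
Log2 fold change, cultured minus fresh, of each of the 59 members (black squares) with its 95% confidence interval (grey bars, 3 arrays in each group, not adjusted for the number of genes), by role; dashed lines mark a 2-fold change. The values run from -0.85 to 0.62, and 54 of the 59 intervals lie between the dashed lines.

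Frizzled receptors were better measured, with 7 of 10 above background on all 6 arrays. Fzd4, a receptor for several Wnts and for norrin, had the lowest p of the receptors. It was at 4.06, 4.00 and 4.02 in cultured cells, against 4.48, 5.02 and 4.74 in fresh cells. The groups did not overlap, and the cultured values were far closer together than the fresh ones. The log2 fold change of Fzd4 was -0.72 ± 0.16 (SE), 1.65-fold lower in culture, with a 95% confidence interval from -1.10 to -0.34 and an adjusted p of 0.0549, which misses the threshold. Fzd4 is known as a gene of blood vessels too; the log2 of the summed signal of the 8 endothelial markers ran from 5.78 to 6.01 on cultured and from 5.80 to 5.86 on fresh arrays, with Pecam1, Cdh5 and Kdr above background on no array. One of these markers, Tek, was called lower in culture with an adjusted p of 0.0413. Tek was above background on no cultured array and on 2 fresh arrays, so its size is not given. By array, 7 of the 8 markers were highest on a cultured array, and none was called higher. The part of endothelial cells in the difference of Fzd4 was not tested.

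Fzd2, a receptor with both canonical and non-canonical roles, went the other way in value. It was at 4.14, 3.32 and 4.29 in cultured cells, against 3.19, 3.39 and 3.32 in fresh cells. As with Wnt10b, cultured replicate 2 lay among the fresh values, and the log2 fold change of 0.62 ± 0.25 (SE) had an adjusted p of 0.255. Without cultured replicate 2 the log2 fold change of Fzd2 was 0.92 with an adjusted p of 0.0215, where 4.04% of all genes were called. Fzd2 was above background on only 2 cultured and 2 fresh arrays, and its fresh mean of 3.30 lay close to background. Cultured replicate 2 was the lowest of the cultured arrays for 13 of the 28 members above background on all 6 arrays (46.4%). The share was 60.8% over all genes above background on all 6. What part the state of cultured replicate 2 has in the differences of Fzd2 and Wnt10b was not tested.

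The other Frizzleds overlapped between groups, or nearly so. Fzd7, the Wnt7a receptor of satellite cells, was at 4.30, 3.81 and 4.40 in cultured cells, against 4.30, 4.28 and 4.65 in fresh cells, and its log2 fold change of -0.24 had a 95% confidence interval from -0.69 to 0.22. Fzd1 and Fzd5 were at 0.10 and -0.04 on the log2 fold change scale, Fzd9 and Fzd10 both at 0.16, with adjusted p of 0.604 or more. Fzd8 had cultured values wholly above the fresh ones, but by a log2 fold change of only 0.12 and near background. Fzd3 and Fzd6 had both group means within background, as did Fzd10os, with a log2 fold change of 0.25 and an adjusted p of 0.526. Whether the array tells Fzd10os from Fzd10 by strand is not stated in the labels.

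Of the 2 Lrp co-receptors, which canonical signalling needs, Lrp6 had the lower p. It was at 4.40, 4.09 and 4.39 in cultured cells, against 4.62, 5.12 and 4.97 in fresh cells. The groups did not overlap, and the log2 fold change was -0.61 ± 0.18 (SE), 1.53-fold lower in culture, with an adjusted p of 0.111. Lrp5 was at 4.75, 4.21 and 4.45 in cultured cells, against 4.09, 4.70 and 4.33 in fresh cells, with full overlap. Its log2 fold change of 0.09 had a 95% confidence interval from -0.39 to 0.58. Whether Lrp5 and Lrp6 differ in their response was not tested.

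The Ror receptors are tyrosine kinase-like receptors for Wnt5a-type ligands. Ror1 was at 3.79, 3.52 and 3.88 in cultured cells, against 4.10, 4.43 and 4.39 in fresh cells. No cultured value reached the fresh range, and the log2 fold change was -0.57 ± 0.16 (SE), 1.49-fold lower in culture, with an adjusted p of 0.105. Ror2, whose window with an AP-1 motif is printed above, was at 4.61, 4.21 and 4.25 in cultured cells, against 3.95, 4.16 and 4.34 in fresh cells. It overlapped between the groups, at a log2 fold change of 0.21 with an adjusted p of 0.593.

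The R-spondin receptors Lgr4, Lgr5 and Lgr6 and the ubiquitin ligases Znrf3 and Rnf43, which remove Frizzled from the cell surface, lay at or within background: 4 of these 5 genes were above it on no array, and Lgr6 on some. Rnf43 had the smallest p, at 2.88, 3.00 and 3.28 in cultured cells, against 2.62, 2.64 and 2.58 in fresh cells. Its groups did not overlap, with an adjusted p of 0.167, but all 6 values were within background and give no fold. Lgr5, a stem cell marker of the intestine, averaged 2.67 ± 0.11 in cultured and 2.56 ± 0.20 in fresh cells (SD, n = 3 each), also within background.

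None of the 10 secreted antagonists was above background on all 6 arrays, and 6 were above it on none. These proteins block signalling outside the cell: the Sfrp proteins, Frzb and Wif1 bind Wnts, while Dkk1, Dkk2 and Dkk4 bind Lrp5 and Lrp6. Sfrp4 had the lowest p of all 59 members. It was at 2.41, 2.24 and 2.07 in cultured cells, against 3.46, 2.90 and 2.92 in fresh cells. The groups did not overlap, and fresh replicate 1 was the only array on which Sfrp4 passed background. The log2 difference of -0.85 ± 0.19 (SE) had an adjusted p of 0.0529, and as both group means lay within background no fold is given. Of the 12 fibroblast markers, 5 were also highest on fresh replicate 1, while 3 were highest on fresh replicate 2, 1 on fresh replicate 3 and 3 on a cultured array. The log2 of the summed signal of 7 tendon markers, none of which passed the test, was 7.09, 6.85 and 7.05 on cultured arrays. On fresh arrays it was 8.40, 6.70 and 6.41, highest on fresh replicate 1. Taken singly, 4 of the 7 tendon markers were highest on fresh replicate 1 and 3 on a cultured array. The part of fibroblast or tendon cells in the difference of Sfrp4 was not tested.

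Dkk4 moved in value in the opposite direction, at 2.96, 2.83 and 3.04 in cultured cells, against 2.30, 2.55 and 2.37 in fresh cells, again wholly within background, with an adjusted p of 0.0828. Dkk1 was at 3.01, 3.40 and 3.34 in cultured cells, against 3.00, 3.19 and 3.23 in fresh cells, a log2 difference of 0.11 near background. Sfrp1, Sfrp2, Frzb, Dkk2 and Dkk3, the last a divergent Dkk protein, had log2 differences between -0.08 and 0.19, all within background. Wif1 and Sfrp5 exceeded background on some arrays of both groups, with adjusted p of 0.897 and 0.841.

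**Figure D3:**
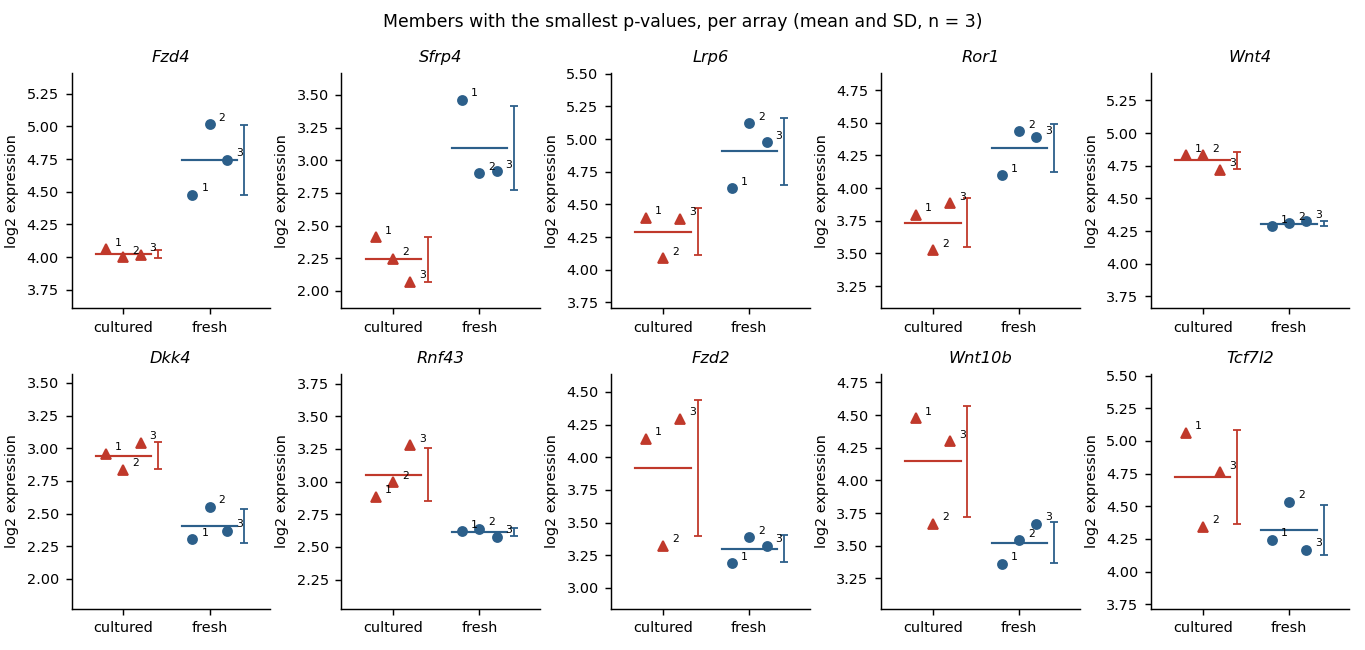
Log2 expression per array of the member with the smallest p of most roles and of the other members with an unadjusted p under 0.05 (Tcf7l2 stands for the transducers), triangles for cultured and circles for fresh arrays, numbered by replicate, with the mean as a line and the SD as a bar (n = 3 each); every panel spans the same height in log2 units. Fzd4, Sfrp4, Lrp6 and Ror1 are lower and Wnt4, Dkk4 and Rnf43 higher on all 3 cultured arrays, while cultured replicate 2 lies in or at the fresh range for Fzd2 and Wnt10b.

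All 6 transducers were above background on all 6 arrays, and none passed the test. Ctnnb1, which encodes beta-catenin, was at 6.09, 5.47 and 5.91 in cultured cells, against 5.38, 5.96 and 5.84 in fresh cells. The groups overlapped fully, and the log2 fold change of 0.10 had a 95% confidence interval from -0.41 to 0.60. That of Ctnnb1 was 0.50 with quantile normalization and 0.31 with cyclic loess. It ran from -0.07 to 0.50 over the 16 other settings, and none of them called it. Beta-catenin is known to be controlled mainly as a protein, which these arrays do not measure. Tcf7l2, a TCF factor that activates or represses targets, had the smallest p here, at 5.06, 4.34 and 4.76 in cultured cells, against 4.24, 4.53 and 4.17 in fresh cells. Cultured replicate 2 again lay inside the fresh range, and the log2 fold change of 0.41 ± 0.21 (SE) had an adjusted p of 0.370. Tcf7l1, mostly a repressor, was at 0.08 and Axin1, the scaffold of the destruction complex, at -0.13 on the log2 fold change scale.

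Of the feedback genes named at the start, Axin2 and Lef1 were above background on all 6 arrays, while Rnf43, Znrf3 and Dkk1, described above, had both group means within it. Axin2, a widely used readout of beta-catenin activity, was at 3.75, 3.78 and 3.65 in cultured cells, against 3.91, 3.55 and 3.46 in fresh cells, and its log2 fold change of 0.09 had a 95% confidence interval from -0.27 to 0.46. Lef1, whose window with a TCF/LEF core is printed above, was at 3.77, 3.90 and 3.85 in cultured cells, against 3.69, 3.82 and 3.61 in fresh cells, and its interval ran from -0.17 to 0.43. For both genes a 2-fold change lies outside the interval on the deposited scale, where RMA values this close to background understate differences. Of feedback genes outside the 59, the Dishevelled inhibitor Nkd1 had a log2 fold change of -0.19, the transcription factor Sp5 of 0.16, the Wnt deacylase Notum of 0.25 and the membrane inhibitor Apcdd1 of -0.05. Their adjusted p were 0.528 or more.

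Of 85 other pathway genes from a list of secretion factors, further receptors, inhibitors, destruction complex proteins, Dishevelled partners and nuclear cofactors, 4 fell and none rose, against the 4.32% of all genes called. Igfbp4, an insulin-like growth factor binding protein that also inhibits Wnt receptors, was at 3.66, 3.75 and 4.13 in cultured cells, against 5.19, 5.60 and 5.20 in fresh cells. Its log2 fold change was -1.49 and its adjusted p 0.00417. Senp2, a SUMO protease that promotes beta-catenin turnover, was at 3.42, 3.30 and 3.11 in cultured cells, against 4.51, 5.13 and 4.61 in fresh cells. It fell with an adjusted p of 0.00507. As its cultured mean was within background and only cultured replicate 1 exceeded it, the log2 fold change of -1.48 is given with its bound against background, -1.43.

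Crebbp, an acetyltransferase and coactivator of many transcription factors including beta-catenin, was at 5.41, 4.73 and 5.15 in cultured cells, against 6.11, 6.46 and 6.28 in fresh cells. It fell by 1.19 with an adjusted p of 0.0154. Csnk1d, a casein kinase that acts on Dishevelled, on the destruction complex and on clock proteins, was at 5.03, 4.81 and 5.02 in cultured cells, against 5.70, 6.19 and 6.18 in fresh cells, and fell by 1.07 with an adjusted p of 0.0137. All 4 genes have groups that do not overlap. Igfbp4 and Senp2 kept their calls in every setting run. Crebbp and Csnk1d lost theirs when any of 3 arrays (replicates 2 and 3 of the fresh group, replicate 3 of the cultured group) was left out, with adjusted p reaching 0.0765 for Crebbp and 0.0718 for Csnk1d. The Wnt carrier Wls and the acyltransferase Porcn, both needed to secrete Wnts, did not pass, at log2 fold changes of 0.02 and 0.22, nor did any of the 12 Dishevelled proteins and partners.

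**Figure D4:**
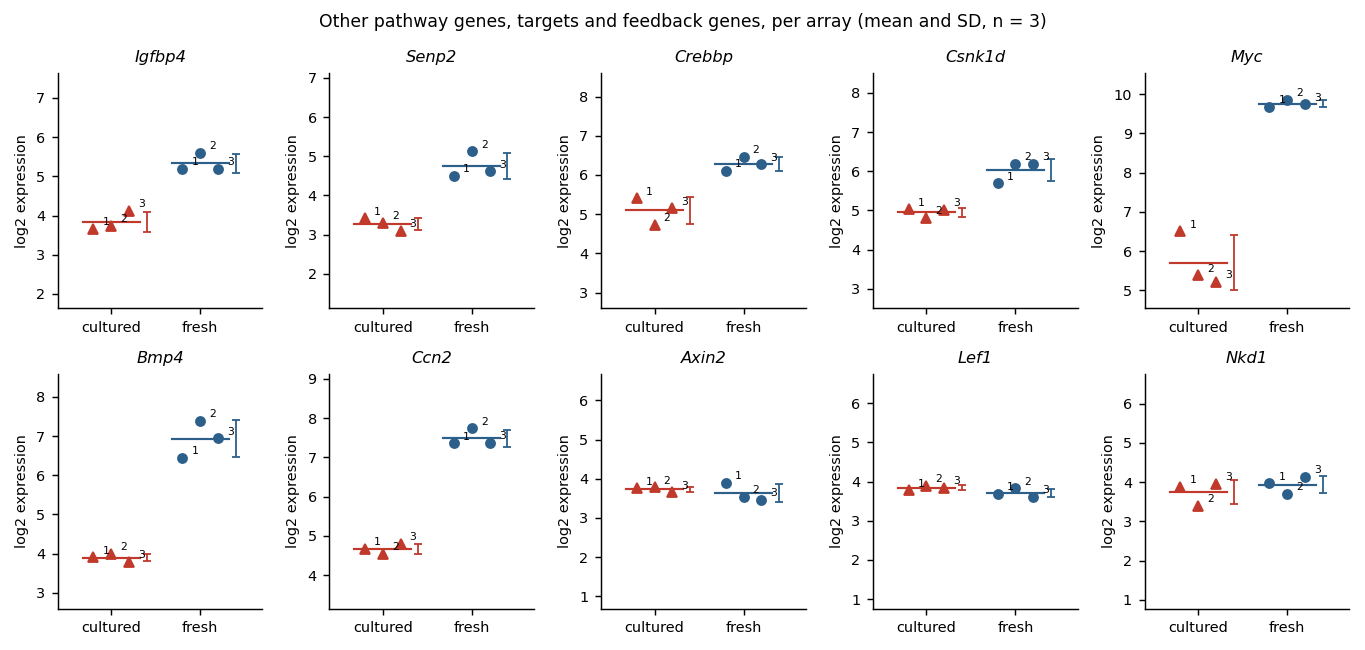
Log2 expression per array of the 4 other pathway genes that fell (Igfbp4, Senp2, Crebbp, Csnk1d), of 3 target genes that fell (Myc, Bmp4, Ccn2) and of the feedback genes Axin2, Lef1 and Nkd1; triangles are cultured and circles fresh arrays, numbered by replicate, with mean line and SD bar (n = 3 each), and every panel spans the same height. The first 7 are lower on all 3 cultured arrays, and the feedback genes overlap between the groups.

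Genes described as Wnt targets in other cells, 35 of them outside the 59, had 6 lower and 1 higher in culture, where 3.37% and 0.953% of all genes were. On all 6 arrays 77.1% of these targets were above background, against 38.3% of all genes, and of the 7639 such genes 496 were called lower and 112 higher. Those that fell were Myc, at 6.50, 5.38 and 5.21 in cultured cells against 9.68, 9.86 and 9.75 in fresh cells, together with the growth factor gene Bmp4, the matricellular genes Ccn1 and Ccn2 and the transcription factor genes Sox9 and Tcf4. Their log2 fold changes were -4.06 for Myc, -3.03 for Bmp4, -2.81 for Ccn1, -2.82 for Ccn2, -0.84 for Sox9 and -1.30 for Tcf4. The gene Tcf4 is not the member Tcf7l2, which had a log2 fold change of 0.41 and was not called. The 1 that rose was Birc5, a mitosis gene, at 7.03, 5.83 and 5.11 in cultured cells against 3.56, 3.70 and 3.44 in fresh cells. All 7 are known to answer to other pathways too, and the list was drawn up with earlier results of these data known. Ccnd1, the cyclin D1 gene, was at 7.12, 6.01 and 6.68 in cultured cells against 5.24, 5.68 and 5.18 in fresh cells, with an adjusted p of 0.0577 that misses the threshold. Ccnd1 passed as higher in culture with quantile normalization, cyclic loess, array weights, either filter on dim genes, and without cultured replicate 1 or 2. Sox9, Tcf4 and Birc5 lost their calls without single arrays: Sox9 without fresh replicate 2 or 3 or cultured replicate 2 or 3, Tcf4 without fresh replicate 3 or cultured replicate 3, and Birc5 without any 1 fresh array, at adjusted p of up to 0.145, 0.0755 and 0.0921. Sox9 also lost its call with quantile normalization, where its log2 fold change was -0.51 with an adjusted p of 0.166, with cyclic loess at 0.0650, with the trended and robust prior at 0.0960, with treat at 0.118 and with the replicate block at 0.0878.

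Under some other scalings, weights and filters members passed the test. After a further quantile normalization Fzd4, Ror1 and Sfrp4 passed as lower in culture, where 7.98% of all genes were called, and with cyclic loess these 3 and Lrp6 did, where 7.55% were called. With array weights Fzd4 and Sfrp4 passed as lower and Dkk4 and Rnf43 as higher, where 8.74% were called. Over the genes above background on all 3 arrays of a group, Fzd4 alone passed, at an adjusted p of 0.0469, where 9.8% of 9610 genes were called. These members kept the direction of their log2 fold changes. Over the 16 other settings Fzd4 ran from -0.85 to -0.59, Ror1 from -0.68 to -0.47 and Lrp6 from -0.75 to -0.51. Wnt10b and Fzd2, which passed only without cultured replicate 2, ran from 0.46 to 0.86 and from 0.43 to 0.92. Within background, the log2 difference of Dkk4 ran from 0.48 to 0.61 and that of Rnf43 from 0.33 to 0.56. Sfrp4 ran from -0.95 to -0.67 over the 14 settings that kept it.

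**Figure D5:**
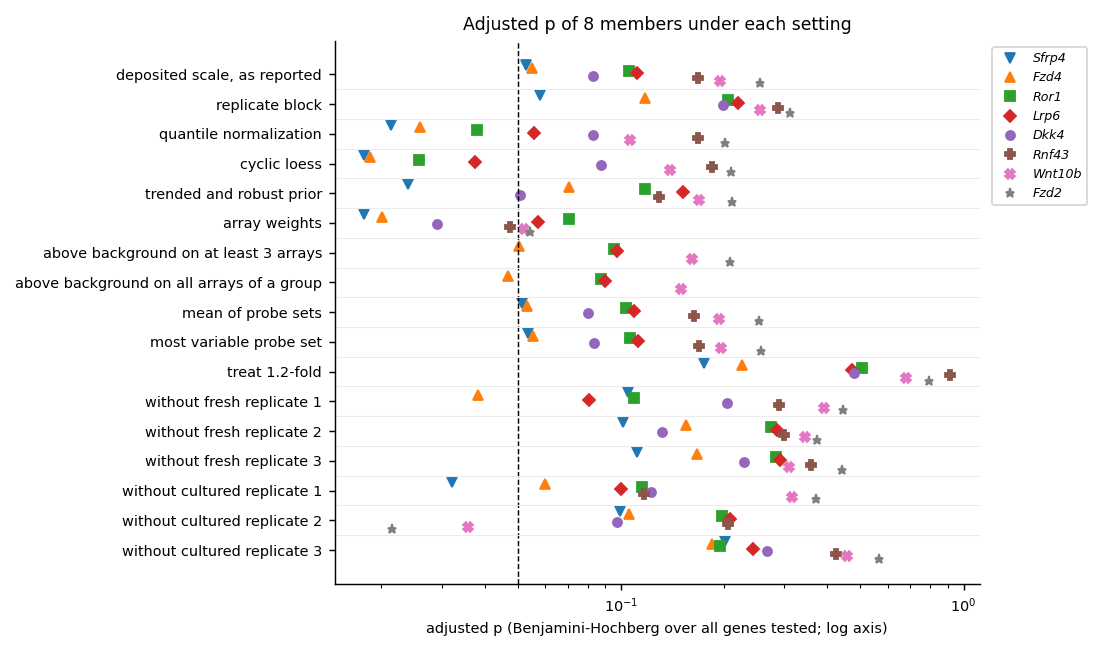
Adjusted p (x axis, log scale) of the 8 members that passed the test under at least 1 setting, for the deposited scale as reported and for each other setting (y axis); the dashed line marks 0.05. On the deposited scale all 8 lie right of the line, with Sfrp4 at 0.0529 and Fzd4 at 0.0549 nearest to it.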

How the data were processed

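Gene expression was measured on 6 arrays, 3 of cultured and 3 of fresh satellite cells, labelled with a whole-transcript terminal kit, per the labels' protocols. The deposited table holds log2 expression values of 35556 probe sets; the authors used RMA and the package oligo, per the submitters' processing notes, with no version. RMA compresses differences near background. The build behind the probe sets: not given in the sources used here. The platform annotation gave 1 gene to 21789 probe sets, and several to 1621, which were not named; 12146 were unlisted. Symbols were updated through GRCm38.p6 names. The probe set with the highest mean was kept per gene, leaving 19938 genes.

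Groups were compared with limma 3.58.1 in R 4.3.3 (lmFit and eBayes with group alone in the design, over all genes without a filter), with Benjamini-Hochberg adjustment over all genes and a threshold of 0.05. The code was tested on simulated data. Array number limits precision. The members and lists were chosen with earlier results of these data known. Values per array are given for members past the test, for those with separate groups and a log2 change of at least 1, and for the smallest p in each role; no member met either of the first conditions, and other members named were chosen after their values were seen. Alternatives were a replicate block, quantile and cyclic loess normalization, a trended and robust prior, array weights, 2 filters that drop dim genes, 2 further ways to choose a probe set, treat against 1.2-fold, leaving out each array, and, added after the data were seen, a test of every probe set.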

Additional observations from a re-analysis of the deposited data

How the results depend on the processing

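On the deposited scale 861 genes were called, 22.1% of them higher in culture. The count was 1592 with quantile normalization (44.2% higher), 1505 with cyclic loess (33.3% higher), 1742 with array weights (33.6% higher) and 557 with treat, and ran from 448 to 1517 when single arrays were left out: 448 without cultured replicate 3, 471 without fresh replicate 3, 478 without fresh replicate 2 and 1517 without cultured replicate 1. The count of members lower in culture, 0 on the deposited scale, was 3 with quantile normalization, 4 with cyclic loess, 1 with the trended and robust prior (Sfrp4), 2 with array weights and 1 over genes above background on all arrays of a group. It ran from 0 to 1 without single arrays: Fzd4 passed without fresh replicate 1 and Sfrp4 without cultured replicate 1. Of all genes 4.52% were called with the trended and robust prior, 3.5% without fresh replicate 1 and 7.61% without cultured replicate 1. The count of members higher in culture, also 0, was 2 with array weights and ran from 0 to 2 without single arrays. Fzd2 and Wnt10b passed without cultured replicate 2, where 4.04% of all genes were called. Other pathway genes lower in culture, 4, ran from 2 to 7 without single arrays, with 7 without cultured replicate 1, and those higher, 0, were 3 with quantile normalization and 1 with array weights and ran from 0 to 1. Target genes lower in culture, 6, ran from 4 to 6. Target genes higher in culture, 1, were 5 with quantile normalization, 3 with cyclic loess or array weights and 2 with either filter on dim genes, and ran from 0 to 3 without single arrays. The counts of target genes under other settings were added after the data were seen. Of all 59 members, 40 kept their direction in each setting that tested them (14 to 16 settings a member, since the filters drop dim members). The other 19 changed it in at least 1. None of these 19 had a log2 fold change over 0.11 in size on the deposited scale. Same-numbered arrays did not deviate together (correlations of -0.09, -0.14 and 0.03 for numbers 1, 2 and 3), so the numbers were not taken to pair the arrays; with the replicate block 662 genes and 0 members were called, and Crebbp, Sox9 and Tcf4 were not.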
